A study of Mus musculus with 3 samples.

Results

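Red cell transcripts were examined in RNA-seq gene counts of 3 normal thymi, the control side of a study of T cell lymphomas that lack Cic, the gene of the repressor capicua. The 9 genes listed are the adult alpha globin genes Hba-a1 and Hba-a2, the adult beta globin genes Hbb-bs and Hbb-bt, Alas2, Slc4a1, Ahsp, Klf1 and Gata1. Of these, 8 were matched by symbol among the 52636 gene identifiers, and Ahsp is not analysed here. The thymi came from C57BL/6 control littermates with the genotype Cic flox/flox that had received tamoxifen, a state that all 3 share. The labels name no Cre allele, no age and no animal for each library. Replicate 1, 2 and 3 of the labels are written as thymus 1, 2 and 3, and the lymphomas are not analysed here. The genes were selected on their counts in these same libraries, whose spread was already known, so their own levels and spread are given as a description without a test.

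Haemoglobin is a tetramer of alpha and beta globin chains that each carry a haem group, and it fills the cytoplasm of red cells. Red cell precursors make globin messages in large amounts under the transcription factors GATA1 and KLF1. The messages persist in young red cells after the nucleus has been lost, and they decay as the cells age in blood. The thymus is a site of T cell development, and it is perfused with blood. In bulk RNA, fewer cells of a type and less RNA per cell cannot be told apart.

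The libraries had between 25408442 and 30414788 reads assigned to genes on the transcribed strand. Markers of the labelled tissue were high in all of them. The 8 genes of double-positive thymocytes, led by Rag1, Tcf7 and Satb1, summed to 13096, 13314 and 12944 CPM (counts per 1000000 reads, with library sizes scaled by TMM) in thymus 1, 2 and 3. The 6 genes of thymic epithelium, led by Prss16, Ccl25 and Psmb11, summed to 1987, 2012 and 2158 CPM.

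The globin genes come in near-identical pairs, which limits what the count of each single copy can show. Hba-a1 (chromosome 11, 32283511 to 32284465, plus strand, GRCm38) and Hba-a2 (chromosome 11, 32296489 to 32297298, plus strand) lie 12023 bases apart. Hbb-bs (chromosome 7, 103826534 to 103828096, minus strand) and Hbb-bt (chromosome 7, 103812524 to 103813996, minus strand) lie 12537 bases apart. The coding sequences of Hba-a1 and Hba-a2, without the stop codon, have 426 bases and differ at 1 of them, C381T, with positions counted from 1 at the start codon and the base of Hba-a1 first. Those of Hbb-bs and Hbb-bt have 441 bases and differ at 1, C417T, with the base of Hbb-bs first. The stretches of 60 coding bases around each difference, from GENCODE M21 transcripts and with the differing base in capitals, show how little separates the copies.
Hba-a1, coding bases 351 to 410: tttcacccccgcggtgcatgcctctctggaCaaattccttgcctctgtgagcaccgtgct
Hba-a2, coding bases 351 to 410: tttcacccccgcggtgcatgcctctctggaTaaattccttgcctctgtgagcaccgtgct
Hbb-bs, coding bases 382 to 441: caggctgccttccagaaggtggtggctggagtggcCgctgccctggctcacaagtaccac
Hbb-bt, coding bases 382 to 441: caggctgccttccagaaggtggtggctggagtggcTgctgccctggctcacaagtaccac

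Of the 50-base stretches in its transcripts, Hba-a1 shares 72.3% with transcripts of Hba-a2, and Hba-a2 shares 89.3% with Hba-a1. Hbb-bs shares 53.2% with Hbb-bt, and Hbb-bt shares 58.3% with Hbb-bs. Reads that map equally well to both copies are not in counts of uniquely mapped reads, so the globin counts leave them out. Alas2, Slc4a1, Klf1 and Gata1 share 0% of such stretches with transcripts of other genes.

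The promoters of 5 of these genes are printed below. The sequences are the 250 bases before the RefSeq start of each gene on GRCm38.p6, 5′ to 3′ on the gene's strand. Capitals mark 2 motifs searched on both strands: GATAA, the core that GATA factors bind, and CCNCNCCC, the CACC box that KLF factors bind.
Hba-a1, chr11:32283422-32283671, plus strand: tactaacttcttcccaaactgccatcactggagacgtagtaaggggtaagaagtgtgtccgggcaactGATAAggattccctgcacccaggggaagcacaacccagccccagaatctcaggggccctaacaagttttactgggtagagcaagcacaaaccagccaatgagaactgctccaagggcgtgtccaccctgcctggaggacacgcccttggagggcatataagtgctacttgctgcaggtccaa
Hbb-bs, chr7:103827929-103828178, minus strand: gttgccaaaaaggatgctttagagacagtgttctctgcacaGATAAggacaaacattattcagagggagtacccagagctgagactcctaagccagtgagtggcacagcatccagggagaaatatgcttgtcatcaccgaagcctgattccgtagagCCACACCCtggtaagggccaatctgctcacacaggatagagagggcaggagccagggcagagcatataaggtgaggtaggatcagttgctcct
Hbb-bt, chr7:103813924-103814173, minus strand: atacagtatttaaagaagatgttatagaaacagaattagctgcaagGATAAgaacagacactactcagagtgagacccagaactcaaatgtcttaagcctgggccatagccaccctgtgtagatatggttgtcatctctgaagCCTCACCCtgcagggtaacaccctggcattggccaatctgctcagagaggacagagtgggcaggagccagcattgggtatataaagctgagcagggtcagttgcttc
Alas2, chrX:150547167-150547416, plus strand: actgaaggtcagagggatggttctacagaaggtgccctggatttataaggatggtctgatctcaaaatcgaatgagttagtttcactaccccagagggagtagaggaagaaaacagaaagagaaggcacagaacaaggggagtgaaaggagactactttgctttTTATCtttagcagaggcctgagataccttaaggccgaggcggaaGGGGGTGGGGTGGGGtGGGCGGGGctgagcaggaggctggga
Klf1, chr8:84901732-84901981, plus strand: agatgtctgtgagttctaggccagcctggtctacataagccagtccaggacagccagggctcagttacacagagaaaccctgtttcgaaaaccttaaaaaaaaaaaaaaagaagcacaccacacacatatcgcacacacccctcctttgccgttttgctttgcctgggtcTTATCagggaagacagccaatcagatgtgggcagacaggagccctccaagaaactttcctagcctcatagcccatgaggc

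RefSeq promoters were found for 7 of the 8 genes, all but Slc4a1. The promoters of Hba-a1 and Hba-a2 were identical over 247 of 247 aligned bases with an offset of 3. GATAA occurred once in the promoters of Hba-a1, Hba-a2, Hbb-bs, Hbb-bt, Alas2 and Klf1. It was not found in the Gata1 window, chrX:7967911-7968160 on the minus strand, which lies wholly inside the span of that gene in GENCODE. The windows of the other genes also reach in part into their GENCODE spans. Among all 32851 promoters of this length 22.6% hold GATAA. It began 182 bases before the start in Hba-a1, 185 in Hba-a2, 209 in Hbb-bs and 204 in Hbb-bt. On the opposite strand it began 86 bases before the start in Alas2 and 80 in Klf1.

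CCNCNCCC occurred once each in Hbb-bs and Hbb-bt, 93 and 107 bases before the start. It occurred 4 times in Alas2, all on the opposite strand with overlaps, and 3 times in Gata1. Of all promoters 45.9% hold at least 1. CCAAT, searched on both strands and not in capitals above, was found in the promoters of all 4 globin genes and of Klf1, against 33.8% of all promoters. It was not found in those of Alas2 and Gata1. These matches describe letters in a window, and their relation to the levels in the thymi was not tested.

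The adult globin genes differed widely between the normal thymi, in the same order for all 4. Hbb-bs, the more strongly counted beta globin gene, had 20174, 872 and 3598 counts in thymus 1, 2 and 3. That was 663, 29.7 and 146 CPM, or 279.6 ± 337 CPM (SD, n = 3), so the SD exceeded the mean. In thymus 1 it ranked 117 among all gene identifiers by CPM, in thymus 2 it ranked 6845 and in thymus 3 it ranked 1715. Thymus 1 was 22.3 times thymus 2, with a 95% exact interval of 20.8 to 23.9 that covers counting error only. Hbb-bt had 3195, 172 and 685 counts, or 105, 5.86 and 27.8 CPM, and its highest library was 17.9 times its lowest.

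Both alpha globin genes had the same order, thymus 1 above thymus 3 above thymus 2. Hba-a1 had 4241, 176 and 670 counts in thymus 1, 2 and 3, or 139, 6.00 and 27.2 CPM. Hba-a2 had 2692, 116 and 412 counts, or 88.5, 3.96 and 16.7 CPM. Thymus 1 was 23.2 times thymus 2 for Hba-a1 and 22.4 times for Hba-a2.

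Summed over the 4 genes, globin reads stood at 996, 45.6 and 218 CPM in thymus 1, 2 and 3, or 419.7 ± 506 CPM (SD, n = 3). They made up 0.0996% of assigned reads in thymus 1, 0.00467% in thymus 2 and 0.0211% in thymus 3. Thymus 1 was 4.58 times thymus 3, thymus 3 was 4.78 times thymus 2, and the whole range was 21.9-fold. The libraries formed a graded series.

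**Figure D1:**
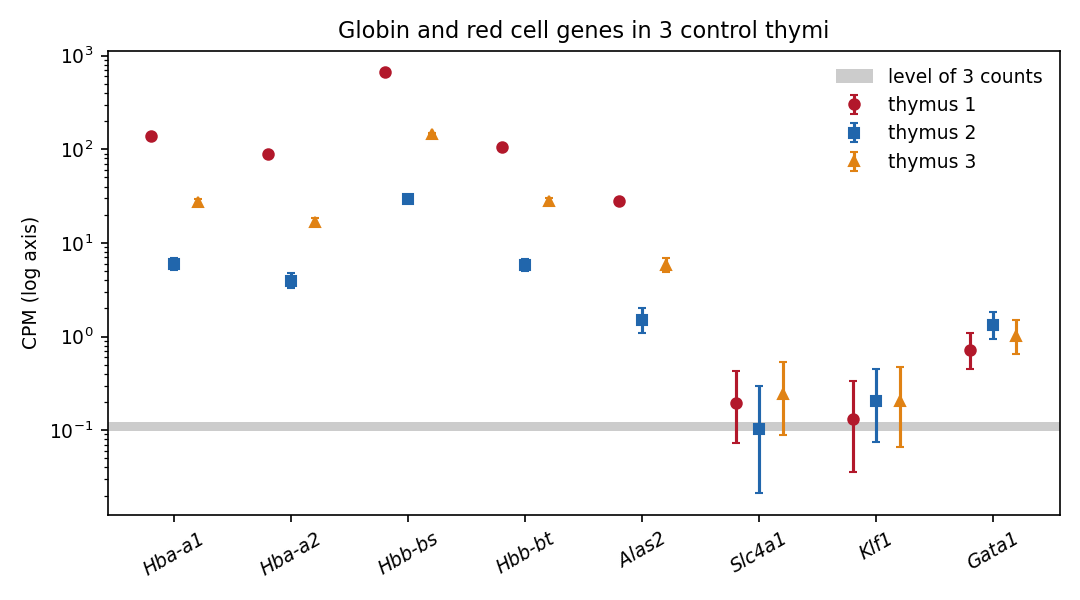
Level of each gene in each thymus as CPM on a log axis, with 95% exact Poisson intervals for counting error and a grey band at the level of 3 counts. The 4 globin genes and Alas2 keep the order thymus 1, thymus 3, thymus 2 over a 17.9-fold to 23.2-fold range. Slc4a1, Klf1 and Gata1 lie near or below 1 CPM. Gata1 has another order, and the counts of Slc4a1 and Klf1 are too low to set one.

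Alas2 (chromosome X, 150547375 to 150570638, plus strand) encodes the erythroid form of the enzyme that opens haem synthesis. It had 863, 44 and 144 counts in thymus 1, 2 and 3, or 28.4, 1.50 and 5.84 CPM. Its order was that of the globin genes, and its highest library was 18.9 times its lowest, with a 95% exact interval of 14.0 to 26.2 for counting error. Apex2 overlaps all of Alas2 on the opposite strand. Apex2 stood at 23.5, 23.1 and 22.8 CPM, nearly level, where Alas2 had an 18.9-fold range. In the column that ignores strand Alas2 had 749, 50 and 128 counts and a range of 14.4-fold.

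The other 3 genes did not follow the globins. Gata1 (chromosome X, 7959260 to 7978071, minus strand), the gene of the master transcription factor of red cells, platelets, mast cells and eosinophils, had 22, 39 and 25 counts in thymus 1, 2 and 3. That was 0.723, 1.33 and 1.01 CPM, lowest where globin was highest and highest where globin was lowest. Thymus 2 was 1.84 times thymus 1 for Gata1, with a 95% exact interval of 1.06 to 3.26 for counting error. Klf1 (chromosome 8, 84901928 to 84905291, plus strand), the gene of the factor that drives adult beta globin, had 4, 6 and 5 counts. Its 0.131, 0.205 and 0.203 CPM have Poisson intervals that overlap widely.

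Slc4a1 (chromosome 11, 102348824 to 102366203, minus strand) encodes the anion exchanger of the red cell membrane. It had 6, 3 and 6 counts, or 0.197, 0.102 and 0.243 CPM. Its ratio of thymus 3 to thymus 2 was 2.38, with an exact interval of 0.508 to 14.7, so no difference was detectable at this depth. Klf1 and Slc4a1 did not pass the filter on low counts, and the remaining 6 genes did.

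Of those 6 genes, 5 had a highest library at least 4 times the lowest, on CPM with a prior count of 2. Over all 16548 genes tested, these 6 included, the same was true of 43, or 0.26%, and the median gene had a ratio of 1.19. The order thymus 1, 3, 2 was found in 5 of the 6 and in 10.4% of all genes tested. Because the genes were chosen with this spread known, nothing further is read from these counts.

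Levels between genes were compared per kilobase of exon. The globin counts leave out reads shared between copies, but the full exon length was used. Globin values may thus be too low, by unequal amounts, since 53.2% of stretches are shared for Hbb-bs and 89.3% for Hba-a2. In CPM per kilobase, Hbb-bs had the highest value of the 8 genes, at 863, 38.7 and 190 in thymus 1, 2 and 3. Hba-a1 had 172, 7.39 and 33.5 CPM per kilobase, Hbb-bt 149, 8.34 and 39.5, and Hba-a2 133, 5.93 and 25.1. Hba-a1 was above Hbb-bt in thymus 1 and below it in thymus 2 and 3, so the order of these neighbours is not settled.

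Alas2 followed at 11.8, 0.624 and 2.43 CPM per kilobase. Below it came Gata1 at 0.297, 0.545 and 0.416, and Klf1 at 0.0859, 0.134 and 0.133. Slc4a1 was lowest, at 0.0403, 0.0209 and 0.0498 CPM per kilobase. In thymus 2, where globin was lowest, the level of Gata1 per kilobase came close to that of Alas2.

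Within each library, the globin genes and Alas2 kept nearly fixed proportions while their amount changed 21.9-fold. Alpha globin reads were 22.9%, 21.9% and 20.2% of all globin reads in thymus 1, 2 and 3, or 21.6% ± 1.37 (SD, n = 3). The 95% Wilson intervals were 22.4% to 23.4% in thymus 1, 19.7% to 24.2% in thymus 2 and 19.1% to 21.3% in thymus 3. Those of thymus 1 and 3 do not overlap, and they cover counting error only.

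Hba-a2 gave 38.8%, 39.7% and 38.1% of alpha globin reads in thymus 1, 2 and 3, the steadiest of the proportions computed among the globins. Hbb-bt gave 13.7%, 16.5% and 16.0% of beta globin reads. Its Wilson interval in thymus 1, 13.2% to 14.1%, lies below those in thymus 2 (14.3% to 18.8%) and thymus 3 (14.9% to 17.1%). The library with the most globin thus had the smallest share of Hbb-bt.

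Alas2 gave 2.85, 3.29 and 2.68 reads per 100 globin reads in thymus 1, 2 and 3, with overlapping Wilson intervals of 2.67 to 3.04, 2.46 to 4.39 and 2.28 to 3.15. The remaining genes kept no such proportion. Gata1 gave 0.0726, 2.92 and 0.466 reads per 100 globin reads, a 40.2-fold range. Klf1 gave 0.0132, 0.449 and 0.0932, and Slc4a1 gave 0.0198, 0.225 and 0.112.

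**Figure D2:**
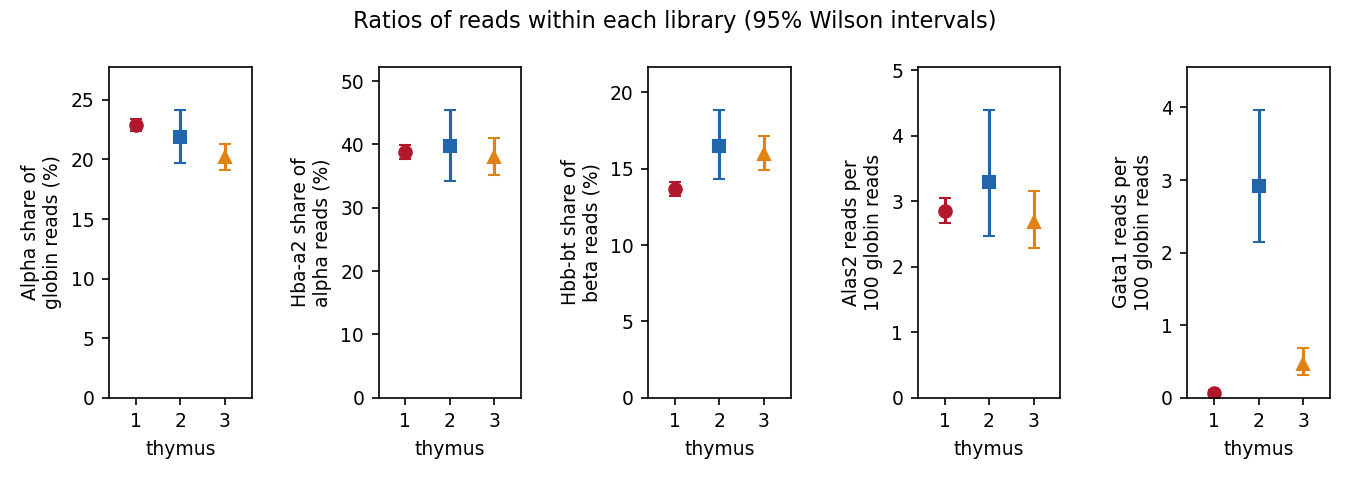
Reads of one gene or pair as a percent of another group of reads within each thymus, each panel on its own axis from 0, with 95% Wilson intervals. The alpha share (20.2% to 22.9%), the shares of Hba-a2 and Hbb-bt and the Alas2 ratio change little between thymi, while the Gata1 ratio in the last panel runs between 0.0726 and 2.92.

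Other genes of the red cell programme were read from 6 lists with 63 genes outside the 9. The 6 other globin genes, which serve the embryo or are minor, were all below 1 CPM in every library. The embryonic genes Hbb-y, Hbb-bh1 and Hba-x had 13, 15 and 7, 5, 5 and 6, and 9, 7 and 4 counts in thymus 1, 2 and 3. Hbb-bh2 had 0 counts in all libraries, and Hbq1a and Hbq1b had at most 2. None of the embryonic genes was much higher in thymus 1, where the adult globins were highest.

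The general enzymes of haem synthesis did not share the spread of Alas2. Alas1, the form of the enzyme used by all tissues, stood at 33.5, 40.5 and 30.1 CPM in thymus 1, 2 and 3, where Alas2 was at 28.4, 1.50 and 5.84 CPM. Ppox, Urod and Fech, later enzymes of the pathway, averaged 50.8 ± 3.06, 49.4 ± 1.03 and 27.1 ± 2.82 CPM (SD, n = 3). The largest range among the 8 enzymes was 1.34-fold. Of the 8 enzymes 0 were called for spread between the thymi by edgeR's quasi-likelihood fit at an adjusted p of 0.05, and 0 had an unadjusted p under 0.05. DESeq2 dispersion outliers and the goodness of fit also held 0 of them.

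Iron and haem transporters had ranges of at most 1.44-fold. Slc25a37, mitoferrin, which carries iron into mitochondria, averaged 353 ± 17.5 CPM, and Tfrc, the transferrin receptor gene, 182 ± 30.2 CPM (SD, n = 3). Tmem14c averaged 62.4 ± 2.54 CPM. Tfrc was lowest in thymus 2, as the globins were, but highest in thymus 3, at 178, 155 and 214 CPM in thymus 1, 2 and 3.

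Genes of the red cell membrane and its skeleton had ranges of at most 2.20-fold among the 9 tested. Epb41, the gene of protein 4.1, which many cells make, was at 237, 258 and 226 CPM in thymus 1, 2 and 3. Gypc (26.6 ± 3.98 CPM), Slc14a1 (13.4 ± 3.06) and Sptb (8.90 ± 2.73) followed (SD, n = 3). Rhag and Rhd, genes of the Rh complex of the red cell membrane, had 2, 1 and 1 counts and 0, 1 and 0 counts in thymus 1, 2 and 3. Ank1, Epb42 and Ermap, also of that membrane, were above the level of 3 counts, with 27, 20 and 6, 19, 20 and 16, and 44, 66 and 24 counts. Of the 17 genes 9 were below 1 CPM in every library, and Slc4a1 lay among such genes in level.

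Transcription and signalling genes of the erythroid lineage had ranges of at most 1.62-fold among the 9 tested. Ldb1, Zbtb7a and Zfpm1, which are not restricted to red cells, averaged 557 ± 29.0, 75.1 ± 0.386 and 36.7 ± 7.15 CPM, and Bcl11a was at 7.98 ± 1.43 CPM (SD, n = 3). Epor, which encodes the erythropoietin receptor, had 26, 27 and 25 counts, or 0.855, 0.921 and 1.01 CPM. Tal1 and Gfi1b, partners of Gata1, stayed below 1 CPM in every library. Gfi1b had 10, 19 and 15 counts, lowest in thymus 1 as Gata1 was, while Tal1 had 22, 20 and 10 counts and was highest there.

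The list of red cell enzymes and late erythroid genes had a median range of 1.20-fold among the 8 tested, and 1 of them had a range over 4-fold. Bnip3l, which clears mitochondria from maturing red cells, averaged 199 ± 18.5 CPM, Prdx2, an antioxidant enzyme abundant in red cells, 173 ± 1.58, Bpgm 48.9 ± 4.97 and Car2 15.3 ± 1.10 CPM (SD, n = 3). Car1 had 4, 5 and 1 counts and Trim58 2, 0 and 0.

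Over the 6 lists 43 of the 63 genes passed the filter and 0 were called for spread between thymi by edgeR (Benjamini-Hochberg 0.05), against a background of 10 of 16548 genes, or 0.0604%. With 3 libraries, a count of 0 does not show that these genes did not differ, least of all for ranges this small. At an unadjusted p under 0.05 there were 4, Tfrc, Sptb and Zfpm1 among them, or 9.30%, against 4.42% of all genes tested. DESeq2 dispersion outliers and the goodness of fit each held 1. The median ratio of highest to lowest library was 1.19, and 1.19 over all genes tested.

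**Figure D3:**
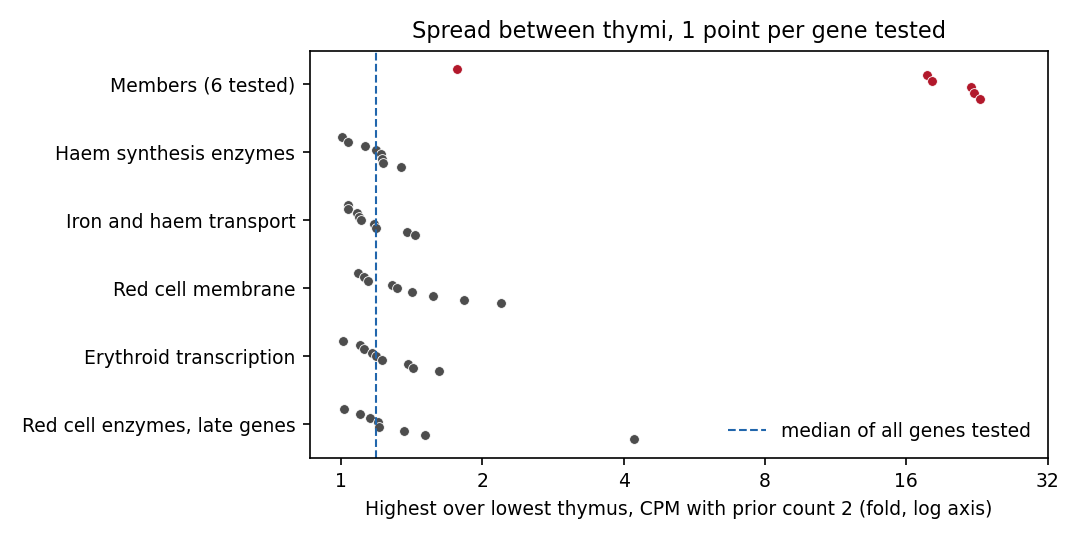
Ratio of the highest to the lowest thymus for each gene that passed the filter, on a log axis, for the 6 genes described that passed it and 5 lists of other red cell genes, with the median of all genes tested (1.19) as a dashed line. The 4 globin genes and Alas2 stand apart at the right, Gata1 lies with the lists, and 1 listed gene lies beyond 4-fold.

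Markers of other blood cells, and of other cells known to use Gata1, were measured beside the globins. The 12 platelet and megakaryocyte genes, led by Clec1b, Itga2b and Pf4, summed to 18.1, 12.2 and 14.4 CPM in thymus 1, 2 and 3. Of these, 9 were below 1 CPM in every library, and Gp1ba, Gp1bb, Gp6 and Treml1 had at most 2 counts. The order of that sum was the order of the globins, with a 1.49-fold range against 21.9-fold. The sums for mast cells and basophils, iron-handling macrophages, and red cell enzymes and late erythroid genes had that order too. Their ranges were 1.31-fold, 1.10-fold and 1.09-fold. Clec1b was at 11.9, 6.92 and 8.44 CPM.

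The 10 neutrophil genes, led by S100a9, S100a8 and Lcn2, summed to 24.1, 20.5 and 48.5 CPM and were highest in thymus 3, not in thymus 1. Of the 8 tested, 5 had an unadjusted p under 0.05. The 8 mast cell and basophil genes, led by Cpa3, Hdc and Mcpt4, summed to 24.9, 18.9 and 24.3 CPM. The 7 eosinophil genes, led by Ear2, Prg2 and Ccr3, summed to 21.1, 20.2 and 18.2 CPM. Neither sum had the order of Gata1, whose level was highest in thymus 2. The eosinophil genes Ccr3 and Siglecf did have it, at 2.17, 3.68 and 2.35 CPM and at 0.559, 1.06 and 0.811 CPM. Ear2 and Prg2 were highest in thymus 1. Of the eosinophil genes tested, 0 had an unadjusted p under 0.05.

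The 8 genes of macrophages that handle iron, led by Vcam1, Hpgd and Slc40a1, summed to 410.1, 374 and 397 CPM, a 1.10-fold range. That sum hides differences between genes, as 7 of the 8 were highest in thymus 1 and Hpgd was highest in thymus 3. Siglec1 was at 8.78, 5.93 and 2.96 CPM and Hpgd at 61.6, 51.8 and 89.6 CPM in thymus 1, 2 and 3. These 2 had an unadjusted p under 0.05. The 6 endothelial genes, led by Pecam1, Egfl7 and Cdh5, summed to 120.5, 134 and 111 CPM. The 8 genes of B and plasma cells, led by Ighm, Igkc and Jchain, summed to 2621, 2444 and 2697 CPM. The 6 fat genes, led by Fabp4, Car3 and Adipoq, summed to 201, 277 and 203 CPM, highest in thymus 2 where the globins were lowest, and 5 of them had an unadjusted p under 0.05. The part of these cells in the globin counts was not tested. Of the 63 genes tested in the lists of other cell types 16 had an unadjusted p under 0.05, or 25.4% against 4.42% of all genes tested. Their smallest adjusted p was 0.533 (edgeR quasi-likelihood), and 0 had a range of 4-fold or more.

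**Figure D4:**
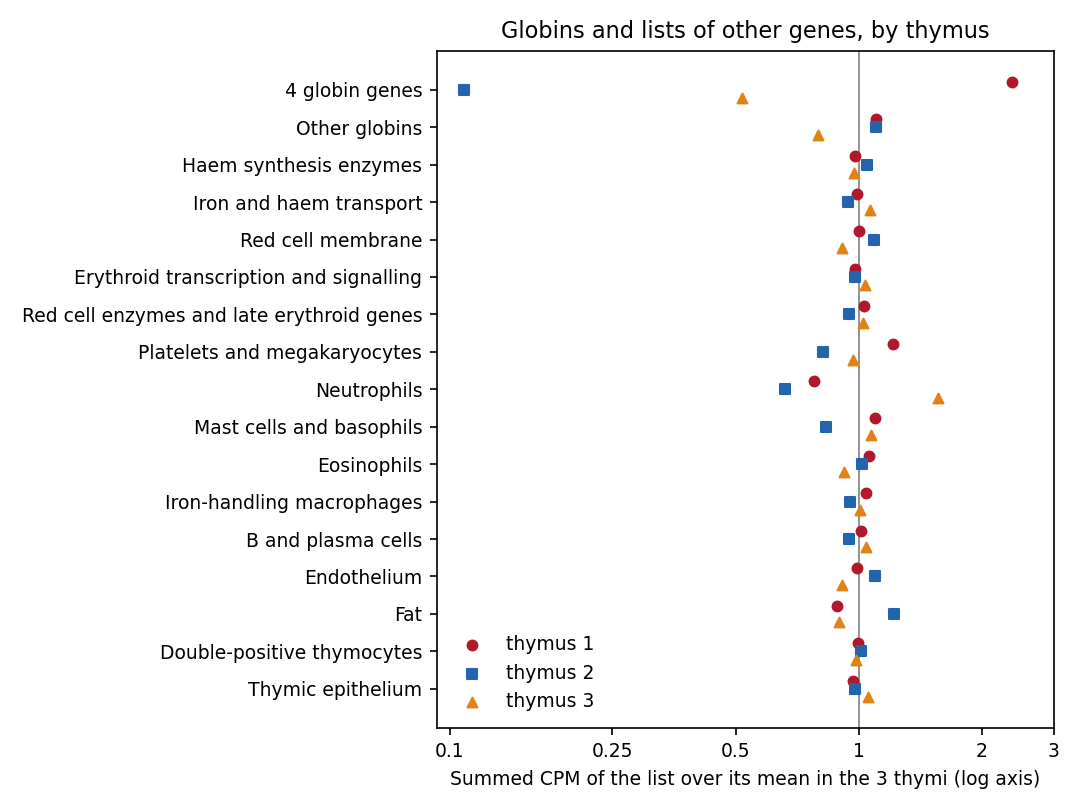
Summed CPM of the 4 globin genes and of each list in each thymus, divided by its mean over the 3 thymi, on a log axis with a line at 1. The globin sum covers a 21.9-fold range, and the sums of the lists cover between 1.03-fold and 2.37-fold.

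Genes with a pattern like that of the globins were sought among 13058 protein-coding genes of at least 1 CPM. Likeness was the Euclidean distance, over the 3 libraries, between a gene's log2 deviations from its mean and the median deviations of the 6 genes described that passed the filter. Those medians were 2.18, −2.15 and −0.01 in thymus 1, 2 and 3. The globin genes and Alas2 lay at distances of 0.123 to 0.203 from them. These small distances were set in advance, because the medians were taken from these same genes. Gata1 lay at 3.65, and a gene with no spread would lie at 3.06. Among the 10 nearest other genes were Gdpd3 at 1.33, Mmp13 at 1.94, Cd5l at 2.12 and Ly6k at 2.12. Others were Pth at 2.19, Ccl8 at 2.22, Strc at 2.25, Adtrp at 2.26 and Cd209b at 2.27.

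None of these came near the globins in all 3 libraries. Gdpd3 was at 54.1, 4.30 and 5.19 CPM in thymus 1, 2 and 3, high in thymus 1 alone. Cd5l was at 9.76, 3.51 and 9.49 CPM, low in thymus 2 alone. Cd209b was at 12.2, 1.16 and 0.527 CPM, lowest in thymus 3. With 3 points such distances are a description.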

How the data were processed

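RNA of 3 control thymi was sequenced after a TruSeq Stranded mRNA preparation, per the labels' protocols. The authors deposited raw read counts per gene, in columns for either strand, the same strand and the reverse strand. Per the submitters' processing notes, STAR 2.5.3a, DESeq2 and the build GRCm38 were used, and the layout is that of STAR's gene counts, which hold uniquely mapped reads. No source used here gives the annotation release or the read length.

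The reverse-strand counts were used. Of 52636 identifiers 52489 matched GENCODE M21 without version. Between 14.0% and 15.5% of reads were multimapping and 13.5% to 14.6% lay on no feature, and these summary lines entered no test. With R 4.3.3, edgeR 4.0.16 (minimum count 10, total 15, TMM) tested each gene's quasi-dispersion against the trend from an intercept-only fit, one-sided, with Benjamini-Hochberg adjustment over 16548 genes, checked on simulated data. DESeq2 1.42.0 served as an alternative. No label ties the libraries to separate animals, so p-values reflect spread among these libraries alone, possibly technical. Log2 values have a prior count of 2. Reads without molecular identifiers are not independent molecules, so the 95% intervals speak of counting error alone, and 3 counts correspond to 0.0986 to 0.122 CPM.

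Members, lists and alternatives were chosen with earlier results of these data known. The text names all members, the 4 most abundant genes of each red cell list, the 3 most abundant of each other list and the 10 genes most like the members. Genes named beyond this rule (Epor, Tal1, Gfi1b, Siglecf, Siglec1 and those given only by counts) were chosen after their values were seen. Promoters come from RefSeq on GRCm38.p6. Values of a few listed genes are not reported here.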

Additional observations from a re-analysis of the deposited data

Results flagged for a closer look

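Reads on the strand opposite to a gene are not in the reverse-strand counts, and they exceeded 3 counts for 2 of the 8 genes. The either-strand column is not the sum of the 2 strands. For Alas2 in thymus 1 it held 749 counts, fewer than the 863 of the reverse-strand column. Alas2 had 20, 21 and 16 opposite-strand reads in thymus 1, 2 and 3. Apex2, which overlaps Alas2 on that strand, had 715, 678 and 562 counts. These opposite-strand reads did not have the 18.9-fold range of Alas2 itself. Hbb-bs had 5 opposite-strand reads in thymus 1, beside 20174 on its own strand, and 0 in thymus 2 and 3.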

How the results depend on the processing

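The globin range of 21.9-fold was 21.3-fold to 22.5-fold with the either-strand column, DESeq2 size factors, library totals, library sizes without the members, or Hba-a1 and Hbb-bs alone. Leaving out each library gave 4.58-fold (without thymus 2) to 21.9-fold (without thymus 3), and 4.80-fold without thymus 1, since fewer libraries span less. The alpha share of 21.6% moved by less than its SD with the either-strand column or with any 1 library left out. Of the 16548 genes, 10 were called in the main setting and 20 with library totals. DESeq2 dispersion outliers held 81 of them and the negative binomial goodness of fit 122. With no filter, which tests more genes, 285 were called. With a library left out the filter was applied anew, so the number of genes tested can differ. The calls were then 25 without thymus 1, 23 without thymus 2 and 137 without thymus 3. The cause was not tested. Among the other red cell genes the count of 0 became 1 with no filter, by goodness of fit and by DESeq2, and 0 to 1 with a library left out. Slc4a1 and Klf1, at 3 to 6 counts a library, are limited by depth. No paired analysis was possible because there is 1 group.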
